A study of Mus musculus with 49 samples.

Results

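Acute phase proteins are secreted proteins whose blood levels shift during inflammation, and complement proteins form the plasma cascade that tags and lyses microbes. The 10 genes described here encode members of both families: Serpina3n, Orm1, Orm2, Orm3, Saa3, Hp and Lcn2 on the acute phase side, and C3, C4b and C6 on the complement side. They were chosen by symbol from the gene column of the deposited tables, and where a symbol had several transcript rows the row with the highest total was used. All 10 were found in all 5 tables, among 22869 gene symbols. The data were RNA-seq values of mouse white adipose tissue from 2 inbred strains, C57BL/6 and 129S1/SvImJ, in 43 libraries and 10 groups. In the chow experiment, epididymal white adipose tissue (eWAT, a visceral fat depot) gave 5 C57BL/6 and 5 129S1/SvImJ libraries from mice fed chow, with no age in the labels. In the drug experiment, both strains ate a low fat control diet from 6 weeks of age. At 16 weeks they stayed on that diet (4 libraries a strain) or were moved for 2 weeks to the same diet with rosiglitazone at 36 mg/kg of diet (4 libraries a strain), and eWAT was taken at 18 weeks. Rosiglitazone is a thiazolidinedione used against diabetes and an agonist of PPARγ, a nuclear receptor that drives adipocyte differentiation. In the 12-week experiments, untreated mice of both strains had 12 weeks of low fat diet. Those experiments gave 5 C57BL/6 and 4 129S1/SvImJ libraries of eWAT and 4 of each strain of iWAT, the inguinal fat pad under the skin, again with no age in the labels. The labels do not say that each library is a separate animal, so p-values measure only the spread between these libraries. The labels name no transgene or deletion in any group. Libraries of 5 F1 samples and 1 GRO-seq sample were not analysed here.

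The liver is the main source of plasma acute phase proteins, and its genes for them respond to interleukin-6, interleukin-1 and glucocorticoids through STAT3, C/EBP and NF-kB factors. White fat also makes several of them: haptoglobin, orosomucoids and serum amyloid A3 are adipose secretory products, and complement factor D, or adipsin, was identified in adipocytes. In the complement cascade, C4 takes part in the classical and lectin pathways, C3 is the component on which all pathways converge, and C6 is part of the membrane attack complex.

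The stretch before the transcription start is shown for 4 genes that the results turn on: Serpina3n and C6, each called with the drug in both strains and in at least 3 strain comparisons, and the neighbouring copies Orm3 and Orm2, of which Orm3 fell with the drug in both strains and Orm2 passed the test in neither. Each run holds the 250 bases before the RefSeq start, 5′ to 3′ on the gene's strand (build GRCm38.p6), in lower case with motif matches in capitals.
Serpina3n: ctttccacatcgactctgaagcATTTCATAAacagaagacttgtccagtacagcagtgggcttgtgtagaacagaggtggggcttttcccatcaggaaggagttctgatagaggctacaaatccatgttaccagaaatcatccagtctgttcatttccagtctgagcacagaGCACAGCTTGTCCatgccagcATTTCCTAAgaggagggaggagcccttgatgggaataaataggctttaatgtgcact
C6: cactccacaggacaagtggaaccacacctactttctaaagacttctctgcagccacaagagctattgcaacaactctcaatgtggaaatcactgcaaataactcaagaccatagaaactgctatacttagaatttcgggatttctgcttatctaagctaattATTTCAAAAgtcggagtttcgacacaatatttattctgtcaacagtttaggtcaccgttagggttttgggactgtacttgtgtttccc
Orm3: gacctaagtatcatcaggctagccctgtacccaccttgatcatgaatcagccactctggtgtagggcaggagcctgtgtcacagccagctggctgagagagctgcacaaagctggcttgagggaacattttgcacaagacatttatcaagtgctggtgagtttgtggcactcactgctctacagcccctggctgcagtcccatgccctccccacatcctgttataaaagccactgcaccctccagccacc
Orm2: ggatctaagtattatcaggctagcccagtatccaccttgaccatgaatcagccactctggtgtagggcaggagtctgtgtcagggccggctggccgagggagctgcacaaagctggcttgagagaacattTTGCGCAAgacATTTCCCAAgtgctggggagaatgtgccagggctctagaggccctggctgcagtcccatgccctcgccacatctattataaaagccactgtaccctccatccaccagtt
These stretches lie at chr12:104406458-104406707, chr15:4726960-4727209, chr4:63355908-63356157 and chr4:63362199-63362448, all on the forward strand. The annotated gene starts (GENCODE, GRCm38) of Serpina3n, C6 and Orm3 lie 62, 143 and 89 bases before the RefSeq starts, inside the printed stretches. The C6 match and the Serpina3n C/EBP match nearer the start are therefore inside the annotated gene. The annotated start of Saa3 lies 3939 bases before its RefSeq start, so its whole searched window is inside the annotated gene. For Serpina3n and Saa3, the bases checked after the RefSeq start were not found in an annotated transcript of the gene. RefSeq promoter windows of 300 bases, from 250 before to 50 after the start, were found for 7 of the 10 genes (Serpina3n, Orm2, Orm3, Saa3, Lcn2, C3 and C6). Both strands were searched for 5 motifs. The C/EBP motif TTNNGNAAT matched in 4 of these 7 windows (Serpina3n at 2 places, Orm2, C3 and C6), against 11.5% of 32851 mouse promoter windows. The C/EBP palindrome TTGCGCAA matched in the Orm2 window alone (0.183% of all windows). The glucocorticoid receptor motif, a spaced inverted repeat, matched in the Serpina3n window alone (0.475% of all windows), 78 to 66 bases before the start. The STAT3 motif TTCNNNGAA (8.30% of all windows) and the NF-kB motif (0.411%) had no match among the 7. The Orm2 and Orm3 windows were 89.2% identical over 295 aligned bases. Such matches describe letters, and binding was not measured.

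The values are the authors' normalized whole numbers with a floor of 1, on a scale set within each table, so levels are compared within a table, and between the 12-week eWAT and iWAT tables, whose highest values are shared. Library totals were nearly equal within a table (5537632 to 7526303 over all tables), the read depth is unknown, and no counting interval can be given. The drug columns share 1 scale, and control libraries serve both the drug and the strain comparisons. A few libraries stood apart. In the chow experiment, 129S1/SvImJ replicates 1 and 2 held the epididymal gene Crisp1 at 33942 and 39892, against 12 to 17 in the other 3. In replicate 2, the summed level of 10 adipocyte markers was 18124, against at least 97601 in every other library. In iWAT, the sum of 11 lymphocyte markers was 2378 in C57BL/6 replicate 4 and 5681 and 2279 in 129S1/SvImJ replicates 1 and 4, against 31 to 115 in the other 5. In 12-week eWAT, C57BL/6 replicate 3 had a sum of 12188 for 10 skeletal muscle markers, against 190 to 584 in the other 4, and without it the Lcn2 depot call was the one lost among the 10 genes (adjusted p = 0.0819). Mesothelial markers, which belong to the lining of visceral fat, summed to 20 to 79 in the iWAT libraries and to at least 377 in the eWAT libraries. Among 8 hepatocyte markers, Apoa1, Apoa2 and Ttr had medians of 2, 2 and 1 over the 43 libraries, Alb had 132, and Cyp2e1, which fat also expresses, had 5685. In C57BL/6 control replicate 3 of the drug experiment, 7 of the 8 were at their highest, with Alb at 5301 (5 to 645 in the other 42 libraries) and Apoa1 at 386 (1 to 41). Library numbers run in a separate block for each group, so group and library series cannot be told apart. Reads of 129S1/SvImJ mice were set against a reference from the other strain, and the part of sequence differences in the strain results was not tested. Among near copies, the Orm1 transcript was 91.0% identical to Orm2 and 86.5% to Orm3, and Serpina3n was 81.6% to 82.1% identical to Serpina3c, Serpina3m and Serpina3g, so reads could be split between copies. Reads could likewise be split between C4b and its copy C4a, whose identity was not computed.

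Per kilobase of transcript, Hp was the most abundant of the 10 genes in all 10 groups, at 1592 to 9034 mean normalized units per kb. The ranks here rest on dividing by transcript length, and the sources do not say whether the values already allow for it. Undivided, C3 was above Hp in some groups, such as C57BL/6 controls (mean 7035 against 5864). In others, such as C57BL/6 chow, it was below (6471 against 10160). Hp encodes haptoglobin, the plasma protein that binds free haemoglobin. Serpina3n, a secreted inhibitor of serine proteases, ranked second in all 5 129S1/SvImJ groups and at place 4 or 5 in all 5 C57BL/6 groups. In C57BL/6 controls its mean of 863.1 per kb was close to the 837.8 per kb of C4b. Orm1, which encodes an orosomucoid, a small lipid-binding plasma protein, stood at 527.0 to 2057 per kb, while its copies Orm3 (21.99 to 231.6) and Orm2 (9.355 to 37.10) were lower in every group. Saa3, an inducible serum amyloid A, ranged from 10.36 to 109.0 per kb. Lcn2, the siderophore-binding lipocalin 2, stayed at 4.645 to 22.40 per kb outside the chow experiment. C3 (612.7 to 1715) and C4b (296.7 to 1150) were abundant, and C6 (8.084 to 123.4) was not.

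The drug experiment asked how each strain responded to rosiglitazone. In C57BL/6 eWAT 6 of the 10 genes were lower with the drug and none higher, against 0.901% of all genes called lower and 1.53% called higher (limma's moderated test, adjusted p under 0.05 over 22869 genes). In 129S1/SvImJ eWAT 6 were again lower and none higher, against 2.56% of all genes lower and 2.96% higher. Serpina3n, Orm1, Orm3, Hp and C6 were called in both strains. C4b was the other gene called in C57BL/6 and Saa3 the other in 129S1/SvImJ. For 5 genes in C57BL/6 and 6 in 129S1/SvImJ every treated library lay below every control, which held for 2.47% and 5.09% of all genes. The median log2 fold change of the 10 was -0.90 in C57BL/6 and -1.11 in 129S1/SvImJ, and that of all genes was 0 and -0.0046. Without C57BL/6 control replicate 3, the library with the hepatocyte markers, the same 6 C57BL/6 calls held, with adjusted p from 2.13e-08 to 0.0403. In that library 7 of the 10 genes lay within the range of the other 3 controls. C4b was the lowest of the 4 there, at 3785, and Saa3 (42) and Lcn2 (14) were the highest.

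**Figure D1:**
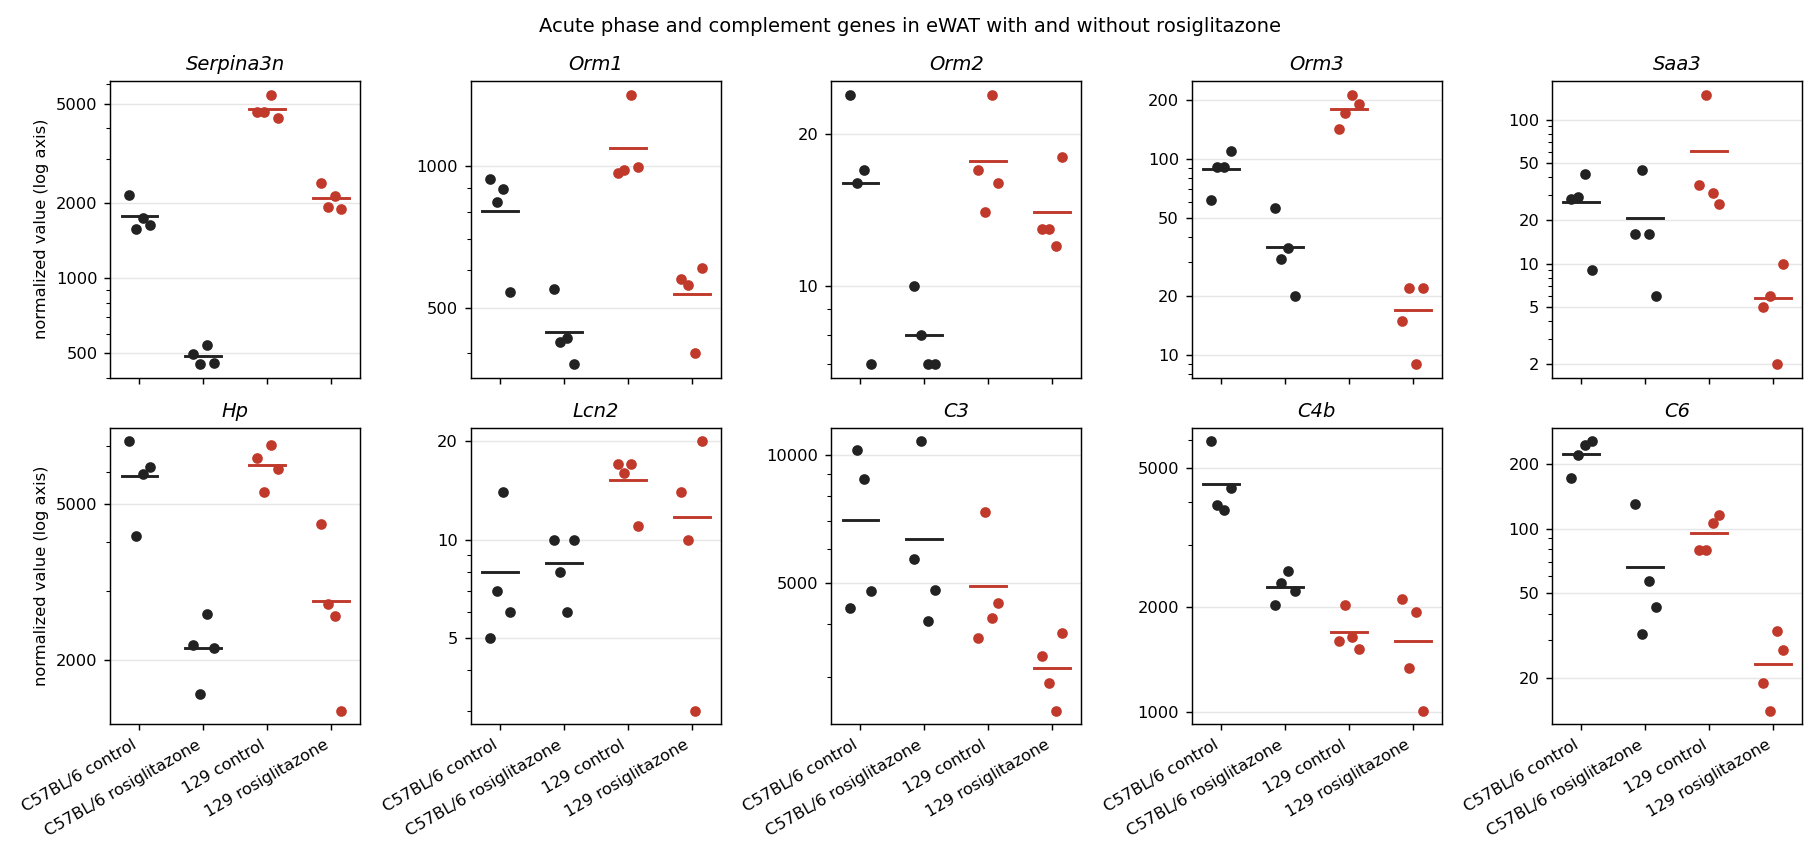
Normalized values of the 10 genes in each eWAT library of the drug experiment (log axes, whose range differs between panels; points are libraries, lines are group means; black C57BL/6, red 129S1/SvImJ; 4 libraries a group). Serpina3n separates all 4 groups except 129S1/SvImJ with the drug and C57BL/6 without it, which overlap between 1894 and 2166.

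Serpina3n gave the smallest p of any gene in the C57BL/6 drug comparison. Its values were 2166, 1582, 1746 and 1632 in C57BL/6 controls and 499, 453, 538 and 458 with rosiglitazone. The highest treated library lay below the lowest control. The log2 fold change was -1.86 ± 0.11 (SE; adjusted p = 1.96e-09), from a mean of 1782 ± 265.4 to 487.0 ± 39.76 (SD, n = 4 each). In 129S1/SvImJ the controls read 4662, 4632, 5465 and 4403 and the treated libraries 2423, 1925, 2132 and 1894. These groups did not overlap either, and the treated 129S1/SvImJ libraries were as high as untreated C57BL/6 ones. The log2 fold change was -1.20 ± 0.11 (adjusted p = 5.35e-07).

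The orosomucoid genes lie side by side on chromosome 4. Orm1 read 940, 839, 895 and 539 in C57BL/6 controls and 547, 422, 430 and 379 with the drug, so that control replicate 4 fell just below the highest treated library. The log2 fold change was -0.83 ± 0.17 (adjusted p = 0.0124), and without treated replicate 4 the adjusted p was 0.0587. In 129S1/SvImJ the values were 968, 981, 1421 and 994 against 574, 559, 400 and 608, with no overlap (log2 -1.02 ± 0.17, adjusted p = 0.00103). Orm3 was 62, 91, 91 and 110 in C57BL/6 controls and 56, 31, 35 and 20 in treated C57BL/6 (log2 -1.36 ± 0.28, adjusted p = 0.00992). In 129S1/SvImJ it dropped from 142, 171, 213 and 190 to 15, 22, 9 and 22, the largest fall of any of the 10 genes (log2 -3.38 ± 0.28, adjusted p = 3.7e-07). Orm2 was low throughout. It read 24, 16, 17 and 7 in C57BL/6 controls against 10, 8, 7 and 7 with the drug (log2 -0.82 ± 0.29, adjusted p = 0.176), and without control replicate 4 it was called (log2 -1.14, adjusted p = 0.0177). In 129S1/SvImJ it read 17, 14, 24 and 16 against 13, 13, 12 and 18 (log2 -0.31 ± 0.29, adjusted p = 0.673).

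Hp fell from 7199, 4133, 5931 and 6193 to 2180, 1633, 2612 and 2139 in C57BL/6 (log2 -1.44 ± 0.26, adjusted p = 0.00888). In 129S1/SvImJ it fell from 6519, 5343, 7063 and 6133 to 4442, 2768, 2580 and 1482 (log2 -1.25 ± 0.26, adjusted p = 0.0104). Control and treated libraries were apart in both strains. Saa3 read 35, 150, 31 and 26 in 129S1/SvImJ controls and 5, 6, 2 and 10 with the drug. Replicate 2 stood far above the other controls, but the lowest control was still above the highest treated library (log2 -2.93 ± 0.64, adjusted p = 0.0127). In C57BL/6 the Saa3 groups overlapped, at 28, 29, 42 and 9 against 16, 45, 16 and 6 (log2 -0.50 ± 0.64, adjusted p = 0.807). Lcn2 stayed between 3 and 20 in all 16 libraries and was not called in either strain.

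Of the complement genes, C6 was lower with the drug in both strains. C57BL/6 controls read 173, 221, 245 and 256 and treated libraries 131, 32, 57 and 43, where replicate 1 was the least reduced (log2 -1.94 ± 0.34, adjusted p = 0.0048). The 129S1/SvImJ values were 79, 79, 106 and 116 against 19, 14, 33 and 27 (log2 -2.03 ± 0.34, adjusted p = 0.00144). Neither pair of groups overlapped. C4b fell in C57BL/6 from 5962, 3909, 3785 and 4371 to 2031, 2346, 2542 and 2216 (log2 -0.96 ± 0.19, adjusted p = 0.0112). In 129S1/SvImJ its untreated values, 1596, 2025, 1637 and 1517, overlapped the treated 2111, 1337, 1929 and 1006 (log2 -0.14 ± 0.19, adjusted p = 0.806). C3 was not called in either strain. It varied within the C57BL/6 controls, at 4371, 10236, 8757 and 4775, and the sum of 11 mesothelial markers moved the same way in those libraries, at 488, 3605, 2609 and 977. The treated C57BL/6 libraries read 5685, 10750, 4069 and 4811 for C3 and 2495, 2803, 1526 and 1886 for the mesothelial sum, whose part in the C3 values was not tested.

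**Figure D2:**
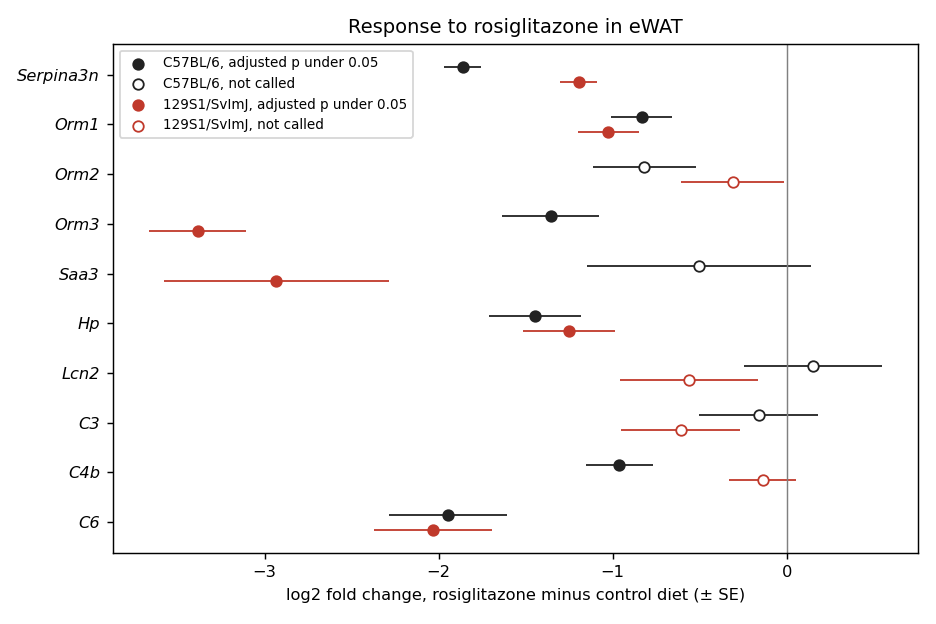
Log2 fold change with rosiglitazone (horizontal axis, ± SE) for the 10 genes in C57BL/6 (black) and 129S1/SvImJ (red) eWAT. Filled points passed an adjusted p of 0.05, and the points of Orm3, at -1.36 and -3.38, lie furthest apart beyond their errors.

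The difference in response between strains was tested by the interaction, the 129S1/SvImJ response minus the C57BL/6 response. It was called for 1 of the 10 genes, Orm3 (log2 -2.03 ± 0.39, adjusted p = 0.0384), against 0.210% of all genes called in either direction. That call did not hold in 9 of the 16 fits that left out a single library, with adjusted p from 0.0522 to 0.12 in those 9. Serpina3n had an interaction of 0.67 ± 0.15, a smaller fall in 129S1/SvImJ (adjusted p = 0.0806), and C4b 0.82 ± 0.27 (adjusted p = 0.274), which was called when 129S1/SvImJ treated replicate 4 was left out (1.02, adjusted p = 0.046). Saa3, with -2.43 ± 0.91, was not called (adjusted p = 0.364), so its call in 129S1/SvImJ alone does not show a strain difference in response. When each strain was fitted on its own 8 libraries, fewer genes passed. In C57BL/6 Serpina3n alone was called, and Orm1, Orm3, Hp, C4b and C6 had adjusted p from 0.0608 to 0.181. In 129S1/SvImJ 4 remained called, with Saa3 at 0.0649 and Hp at 0.0938.

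The wider pathway lists were read in the same fits. Of 27 other acute phase genes, 2 were lower and none higher in C57BL/6: Serpina3c, a copy of Serpina3n (log2 -0.62 ± 0.14, adjusted p = 0.0159), and Agt, which encodes angiotensinogen (log2 -1.49 ± 0.30, adjusted p = 0.0182). In 129S1/SvImJ 3 were lower: Serpina3c (log2 -0.89 ± 0.14), Lbp, the lipopolysaccharide binding protein (log2 -1.53 ± 0.24), and Serpina1a, an alpha-1 antitrypsin (log2 -2.31 ± 0.62). Serpina1a was near the floor, with a mean of 2.5 with the drug and 16.75 in controls (limma adjusted p = 0.0341). Of 22 other complement components, none was called in C57BL/6, and in 129S1/SvImJ 4 were lower and 1 higher. The lower ones included the classical pathway proteases C1s (log2 -0.95 ± 0.12) and C1ra (log2 -0.86 ± 0.17) and the C3 convertase subunit C2 (log2 -0.87 ± 0.15). Of 19 complement regulators and receptors, Cd93 was lower in C57BL/6 (log2 -0.99 ± 0.19). In 129S1/SvImJ Clu, or clusterin, was lower (log2 -1.19 ± 0.24) and Cd59a, an inhibitor of the membrane attack complex, was higher (log2 0.54 ± 0.15). Of 21 genes of the cytokine signalling that drives the acute phase, none was called in C57BL/6, and in 129S1/SvImJ Lifr, a receptor subunit for leukaemia inhibitory factor, and Nfkbia, the inhibitor of NF-kB, were lower (log2 -0.42 ± 0.09 and -0.61 ± 0.15). Of 11 glucocorticoid responsive genes, Hsd11b1, the enzyme that regenerates active glucocorticoid, was lower in both strains (log2 -1.30 ± 0.22 in C57BL/6 and -1.18 ± 0.22 in 129S1/SvImJ). In 129S1/SvImJ Tsc22d3 (log2 -0.63 ± 0.11) and the receptor gene Nr3c1 (log2 -0.39 ± 0.09) were lower as well.

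Summed levels of several cell marker lists also differed in range between the drug groups. The sum of 11 macrophage markers was 3435 to 7108 in C57BL/6 controls against 1924 to 4576 in treated C57BL/6, and 3976 to 5710 against 2431 to 3963 in 129S1/SvImJ, with 1 of the 11 genes called lower in each strain. The progenitor and fibroblast sum was 9124 to 17849 against 7246 to 10632 in C57BL/6 and 18721 to 23014 against 12096 to 20548 in 129S1/SvImJ. Of its 10 genes none was called in C57BL/6 (median log2 -0.29) and 1 was lower in 129S1/SvImJ (median log2 0.11). The adipocyte sum was higher with the drug, at 110250 to 122909 against 126375 to 145768 in C57BL/6 and 110660 to 123163 against 154151 to 162284 in 129S1/SvImJ. Its 10 genes did not all move with the sum. In C57BL/6 1 was called higher (median log2 0.11), and in 129S1/SvImJ 3 were higher and 2 lower (median log2 -0.017). The mesothelial sum was 1862 to 3068 against 846 to 2030 in 129S1/SvImJ, with a median log2 change of the 11 markers of -1.01, against 0.57 in C57BL/6 and -1.56 for the interaction, and none of the 11 was called in any of the 3. The part of these shifts in the values of the 10 genes was not tested. In bulk tissue, fewer cells of a type and less RNA per cell cannot be told apart.

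Between strains, C6 and Serpina3n stood out in opposite directions. C6 was lower in 129S1/SvImJ in all 5 comparisons and called in 4, by log2 -3.00 to -1.23. Serpina3n was higher in 129S1/SvImJ in all 5 and called in 3, by log2 0.61 to 2.10. C3 and C4b were below 0 in all 5 comparisons and were called in 1 each. The other 6 genes had no call or calls in a single comparison, apart from Orm3, called in opposite directions with and without the drug.

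**Figure D3:**
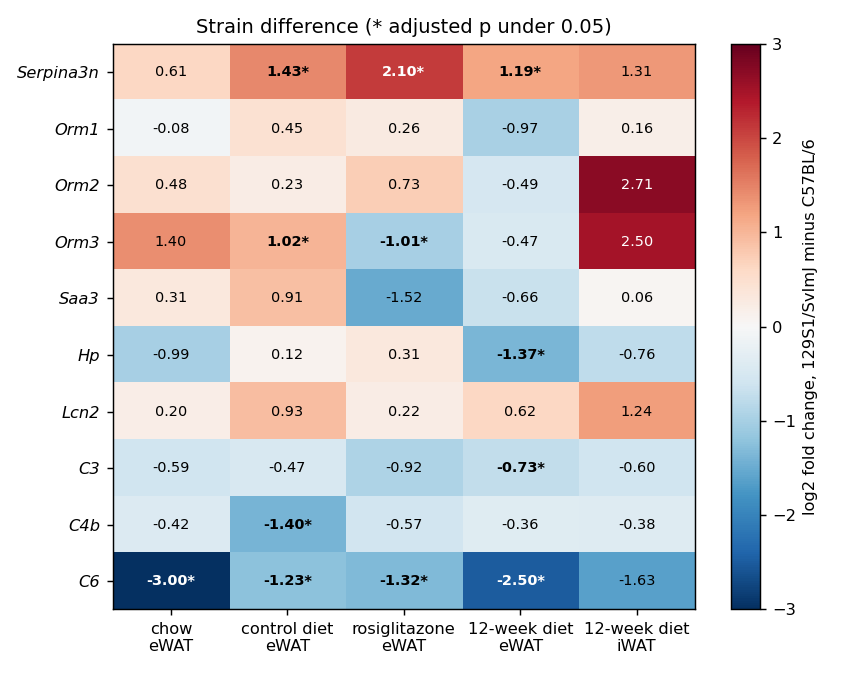
Log2 fold change of 129S1/SvImJ over C57BL/6 for the 10 genes (rows) in the 5 strain comparisons (columns). Red is higher in 129S1/SvImJ and blue lower, and an asterisk marks an adjusted p under 0.05. C6 is negative in every column and Serpina3n positive in every column.

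On the control diet 4 of the 10 genes were called, against 17.5% of all genes in either direction. Serpina3n was higher in 129S1/SvImJ (log2 1.43 ± 0.11, adjusted p = 1.09e-08) and so was Orm3 (log2 1.02 ± 0.28, adjusted p = 0.0136), and for both every 129S1/SvImJ control was above every C57BL/6 control. C4b was lower, with 1517 to 2025 in 129S1/SvImJ against 3785 to 5962 (log2 -1.40 ± 0.19, adjusted p = 9.61e-05). C6 was lower too, at 79 to 116 against 173 to 256 (log2 -1.23 ± 0.34, adjusted p = 0.0187), a call that missed the threshold without 129S1/SvImJ replicate 1 (0.0516) or 2 (0.0522). The 129S1/SvImJ controls lay wholly above the C57BL/6 ones for 3 genes (Serpina3n, Orm1 and Orm3) and wholly below for 2 (C4b and C6), against 9.91% and 7.66% of all genes. Among rosiglitazone-fed mice 3 were called, against 10.7% of all genes. Serpina3n was 1894 to 2423 against 453 to 538 (log2 2.10 ± 0.11, adjusted p = 3.78e-11). C6 overlapped by a single unit, 14 to 33 against 32 to 131 (log2 -1.32 ± 0.34, adjusted p = 0.0193). Orm3 was lower in 129S1/SvImJ, 9 to 22 against 20 to 56 (log2 -1.01 ± 0.28, adjusted p = 0.023). The Orm3 call was lost when any of 4 libraries was left out (0.0617 to 0.084) and the C6 call when 129S1/SvImJ treated replicate 1 (0.0676) or 2 (0.0736) was. Serpina3n and Orm2 were wholly higher in 129S1/SvImJ and C3 wholly lower, against 6.88% and 6.34% of all genes. In a fit on these 8 libraries alone the adjusted p was 0.2 for Orm3 and 0.172 for C6, and Orm2 was called higher in 129S1/SvImJ (log2 0.73, adjusted p = 0.0477). C4b, at log2 -0.57 ± 0.19 (adjusted p = 0.0687), was called without 129S1/SvImJ treated replicate 1 (0.0199) or 3 (0.036) and when genes with a mean under 10 were dropped (0.0446). Of the cell markers, 7 of 10 endothelial genes were called lower and 5 of 10 adipocyte genes higher in 129S1/SvImJ on the control diet, and 3 and 1 with rosiglitazone, and their part in these differences was not tested. The strain and drug comparisons share their libraries and are not independent of each other.

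In chow-fed eWAT 1 of the 10 genes was called, against 4.99% of all genes. C6 read 185, 303, 297, 219 and 295 in C57BL/6 and 47, 7, 24, 58 and 58 in 129S1/SvImJ, wholly lower as in 4.00% of all genes (log2 -3.00 ± 0.55, adjusted p = 0.019). The call was lost without C57BL/6 replicate 2 (0.055) or 3 (0.052) or 129S1/SvImJ replicate 3 (0.0553). Serpina3n read 1657, 1694, 1515, 1832 and 1742 in C57BL/6 and 3019, 763, 3644, 3932 and 3436 in 129S1/SvImJ. The low value belongs to replicate 2, the library with the low adipocyte sum, which was also the lowest of its group for 9 of the 10 genes. With it the difference was not called (log2 0.61 ± 0.43, adjusted p = 0.573). Without it Serpina3n was higher by log2 1.05 (adjusted p = 0.000892), and without both libraries with high Crisp1 by 1.12 (adjusted p = 0.000832). Hp was lower in 129S1/SvImJ without passing the test (log2 -0.99 ± 0.39, adjusted p = 0.239).

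Lcn2 in chow-fed eWAT was high in single libraries of both strains. It read 11, 836, 8, 21 and 937 in C57BL/6 and 113, 3601, 23, 23 and 15 in 129S1/SvImJ, against 1 to 31 in every library of the other experiments. The 4 libraries above 100 were those with the highest sums of 12 skin and glandular epithelium markers, at 869 and 804 in C57BL/6 replicates 2 and 5 and 1635 and 4183 in 129S1/SvImJ replicates 1 and 2, against 94 to 148 in the other 6. The part of epithelial RNA in the Lcn2 values was not tested. Without those 4 libraries 3 genes were called between strains: C6, Serpina3n (log2 1.14, adjusted p = 0.0133) and Orm3 (log2 1.68, adjusted p = 0.037).

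**Figure D4:**
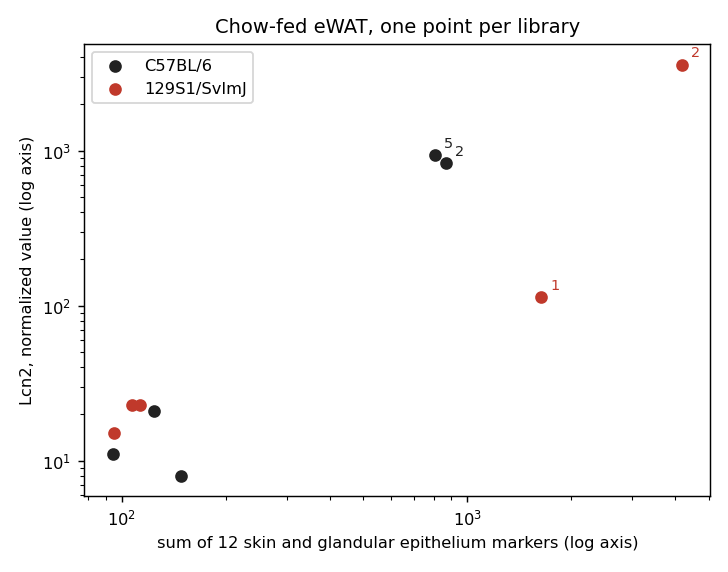
Lcn2 (vertical, log axis) against the summed level of 12 skin and glandular epithelium markers (horizontal, log axis) in the 10 chow eWAT libraries, in normalized units (black C57BL/6, red 129S1/SvImJ; numbers are replicates). The 4 numbered libraries have marker sums from 804 to 4183, and the other 6 have sums from 94 to 148 and Lcn2 between 8 and 23.

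After 12 weeks of low fat diet, 4 of the 10 genes differed between strains in eWAT, against 21.7% of all genes. Serpina3n was 1679, 1812, 1965, 1801 and 1961 in C57BL/6 and 4275, 7443, 3487 and 2840 in 129S1/SvImJ (log2 1.19 ± 0.26, adjusted p = 0.0167). Hp was 10085 to 15104 in C57BL/6 and 3307, 6703, 3580 and 5905 in 129S1/SvImJ (log2 -1.37 ± 0.24, adjusted p = 0.00718). C3 was 7503 to 10268 against 4624, 4805, 5413 and 6361 (log2 -0.73 ± 0.13, adjusted p = 0.00665). C6 was 279 to 457 against 91, 121, 42 and 30 (log2 -2.50 ± 0.42, adjusted p = 0.00575). None of these 4 pairs of groups overlapped, which held for 11.1% of all genes with 129S1/SvImJ higher and 9.93% with it lower. Each of the 4 calls held whichever single library was left out. With the replicate number as a block in the fit none held, and calls over all genes fell from 4973 to 1277. Orm1 was 1280 to 1863 against 751, 1533, 770 and 475 (log2 -0.97 ± 0.32, adjusted p = 0.0726). The high Orm1 value was that of 129S1/SvImJ replicate 2, the highest of its group for 7 of the 10 genes. Its 10 neutrophil markers summed to 128 against 23 to 58 in the other 3, but S100a8 alone gave 105 of the 128, and S100a9 was 6. Without replicate 2 Orm1 was called lower (log2 -1.28, adjusted p = 0.0101), as it was when genes with a mean under 10 were dropped (0.0167). The 10 endothelial markers were all called lower in 129S1/SvImJ in this experiment. Of 11 mesothelial markers 4 were lower and 1 higher, and of 10 adipocyte markers 4 were lower and 1 higher. Of 11 macrophage markers 3 were higher and none lower. The part of these markers in the strain differences was not tested.

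In iWAT none of the 10 genes was called between strains, against 1.69% of all genes. By limma's unadjusted p, 5 of the 10 (Serpina3n, Orm2, Orm3, Hp and C4b) were under 0.05, against 12.6% of all genes. Serpina3n was nonetheless apart, at 2373, 2438, 2666 and 1242 in C57BL/6 and 4515, 6228, 7503 and 3451 in 129S1/SvImJ (log2 1.31 ± 0.35, adjusted p = 0.175). The lowest value in C57BL/6 and the lowest pair in 129S1/SvImJ were the 3 libraries with high lymphocyte sums. Without those 3 Serpina3n was called (log2 1.46, adjusted p = 0.00055). C3 was highest of its group in 2 of those 3 libraries, at 11101 in C57BL/6 replicate 4 and 10671 in 129S1/SvImJ replicate 1. Hp read 7909, 12016, 12016 and 8826 in C57BL/6 and 5502, 6106, 5777 and 6280 in 129S1/SvImJ, also apart (log2 -0.76 ± 0.16, adjusted p = 0.0919). Serpina3n and Orm3 were wholly higher and Hp wholly lower in 129S1/SvImJ, as were 4.11% and 3.67% of all genes. C6 overlapped, at 108, 157, 191 and 43 against 16, 66, 127 and 10 (log2 -1.63 ± 0.93, adjusted p = 0.582). Both low 129S1/SvImJ values and the low C57BL/6 value again came from the 3 libraries with lymphocyte markers.

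**Figure D5:**
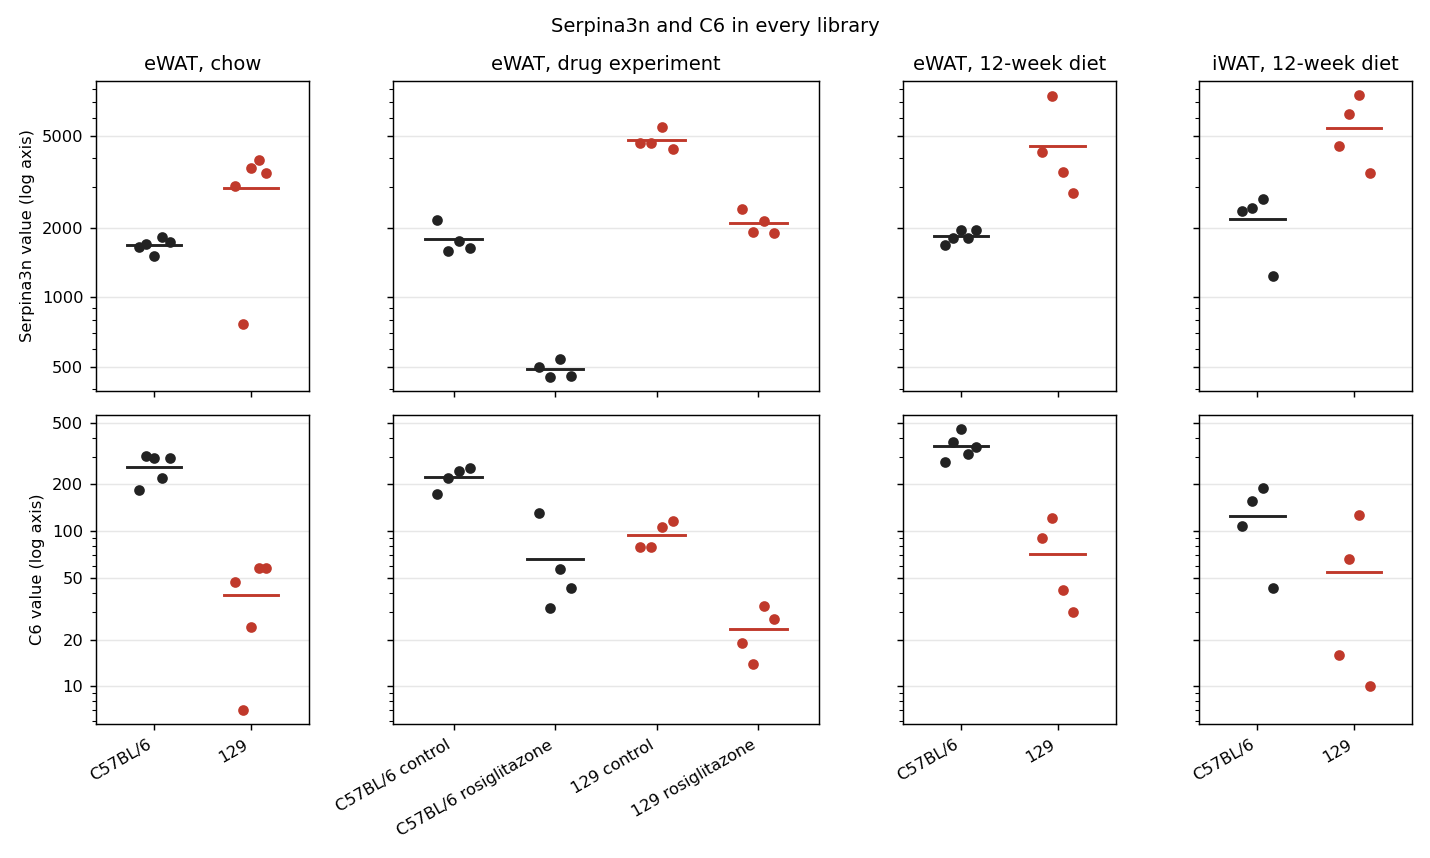
Serpina3n (upper row) and C6 (lower row) in every library, in normalized units on log axes, by experiment (points are libraries, lines are group means; black C57BL/6, red 129S1/SvImJ). Serpina3n is higher in 129S1/SvImJ in each panel but for chow replicate 2 at 763, and C6 is lower in 129S1/SvImJ in the control, chow and 12-week eWAT panels with no overlap.

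The depots were compared within each strain as iWAT minus eWAT. The labels do not say whether both depots came from the same mice, and the fit treated all libraries as independent. In C57BL/6 3 of the 10 genes were lower in iWAT, against 7.81% of all genes called lower, and none was higher, against 5.27%. The iWAT libraries lay wholly below the eWAT ones for Orm3 and C6, and for 9.15% of all genes. Orm3 was 142 to 166 in eWAT and 29, 1, 50 and 9 in iWAT (log2 -3.52 ± 0.70, adjusted p = 0.00486), where 1 is the floor. Orm2 was 21 to 37 in eWAT and 1, 1, 1 and 26 in iWAT (log2 -2.83 ± 0.71, adjusted p = 0.0177), and Lcn2 was 6 to 17 and 1, 10, 1 and 5 (log2 -1.74 ± 0.54, adjusted p = 0.0479). The C57BL/6 iWAT libraries had coarse values, with 32.1% to 37.7% of genes at the floor and 467 to 679 distinct values, against 15.2% to 27.2% and 1293 to 1865 elsewhere. With a pseudocount of 16 the changes of Orm2 and Lcn2 shrank to log2 -0.996 and -0.54 and lost their calls. Each also lost its call in a fit on the C57BL/6 libraries alone (0.0722 and 0.11) and without certain single libraries, 2 of 9 for Orm2 and 7 of 9 for Lcn2. Saa3, not called with all libraries (adjusted p = 0.123), was called lower in iWAT without C57BL/6 iWAT replicate 3 (log2 -3.24, adjusted p = 0.0135). C6 was 279 to 457 in eWAT and 43 to 191 in iWAT, apart but not called (log2 -1.68 ± 0.68, adjusted p = 0.132), and was called in the fit on the C57BL/6 libraries alone (0.0456) and when genes with a mean under 10 were dropped (0.0497). The abundant genes Serpina3n, Hp, C3 and C4b had changes within 0.47 of 0 and no call.

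In 129S1/SvImJ none of the 10 genes was called between depots, against 1.72% of all genes, and 0 had an unadjusted limma p under 0.05, against 13.3% of all genes. Orm3 read 112, 132, 154 and 61 in eWAT and 51, 89, 66 and 100 in iWAT (log2 -0.55 ± 0.73, adjusted p = 0.865). No interaction of strain and depot was called, against 3.14% of all genes, and 3 of the 10 (Orm1, Orm2 and Orm3) had an unadjusted limma p under 0.05, against 16.1% of all genes. The interaction was 3.20 ± 1.02 for Orm2 (adjusted p = 0.116) and 2.97 ± 1.01 for Orm3 (adjusted p = 0.142). Orm2 was called without the 3 libraries with lymphocyte markers (3.44, adjusted p = 0.00436) and without C57BL/6 iWAT replicate 4 (4.14, adjusted p = 0.00342), and Orm3 without C57BL/6 iWAT replicate 3 (3.62, adjusted p = 0.0445). Of the wider pathway lists, Agt was lower in iWAT in both strains (log2 -3.56 ± 0.55 in C57BL/6 and -3.09 ± 0.58 in 129S1/SvImJ). So was the collectin Colec12 (log2 -1.54 ± 0.16 and -1.04 ± 0.17). C7, the component that follows C6 in the membrane attack complex, was higher in C57BL/6 iWAT (log2 2.03 ± 0.28), and its strain by depot interaction was called (log2 -1.74 ± 0.41, adjusted p = 0.0381). All 11 mesothelial markers were called lower in iWAT in both strains, and their part in these differences was not tested.

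Some genes of the wider lists were called between strains. Those named here were chosen for their small p within the acute phase and complement lists only. Of 21 cytokine signalling genes 1 was higher and 5 lower in 129S1/SvImJ on the control diet, where 17.5% of all genes were called. In 12-week eWAT 3 were higher and 5 lower. Of 11 glucocorticoid responsive genes 2 were higher and 2 lower on the control diet, and 2 higher and 1 lower in 12-week eWAT. Serpina3g and Serpina3m were higher in 129S1/SvImJ on the control diet (log2 2.55 ± 0.38 and 3.69 ± 0.48), with rosiglitazone (1.51 ± 0.38 and 3.76 ± 0.48) and in 12-week eWAT (2.27 ± 0.36 and 2.30 ± 0.34). Serpina1b was higher in 129S1/SvImJ in chow eWAT (log2 4.48 ± 0.69), 12-week eWAT (5.15 ± 0.65) and 12-week iWAT (6.56 ± 0.87), while its copy Serpina1a was lower in chow eWAT (-3.16 ± 0.57). Reads of these copies could be split between them. Colec12 was higher in 129S1/SvImJ in chow, control and 12-week eWAT (log2 1.53 ± 0.36, 1.18 ± 0.24 and 0.37 ± 0.06). Cd59a was lower in control, rosiglitazone and 12-week eWAT (log2 -1.48 ± 0.15, -1.33 ± 0.15 and -0.98 ± 0.11). C2 was lower with rosiglitazone, in 12-week eWAT and in iWAT (log2 -1.01 ± 0.15, -0.79 ± 0.13 and -1.11 ± 0.18). Lbp was lower on the control diet and with rosiglitazone (log2 -1.38 ± 0.24 and -2.08 ± 0.24). In 12-week eWAT, where 21.7% of all genes were called, 3 of the 27 other acute phase genes were higher and 3 lower, a share near that of all genes, and of the 22 other complement components 2 were higher and 8 lower.

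Cfd encodes adipsin, the protease that starts the alternative complement pathway, and was called in no comparison. Its mean was 14580 ± 9716 in C57BL/6 controls and 7884 ± 2605 with rosiglitazone (log2 -0.74 ± 0.42, adjusted p = 0.496). In 129S1/SvImJ the groups were apart, at 22651, 12100, 7594 and 14393 against 5728, 7426, 3583 and 4519 (log2 -1.36 ± 0.42, adjusted p = 0.0888). In 12-week eWAT it was 29720 to 40624 in C57BL/6 and 7366, 11421, 24405 and 24405 in 129S1/SvImJ (log2 -1.21 ± 0.38, adjusted p = 0.0626).

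Within groups, the 10 genes did not share 1 pattern across libraries. Over the 33 libraries outside the chow experiment, after each gene's log2 value was centred on its group mean, the mean of the 7 genes with a mean value of at least 50 (Serpina3n, Orm1, Orm3, Hp, C3, C4b and C6) was set against each gene. Each of the 10 was set against the mean of the others of those 7. Orm1 (r = 0.734) and Serpina3n (r = 0.691) were closest, followed by Saa3 (0.549) and C6 (0.297). C3 (-0.483), Orm2 (-0.302) and C4b (-0.300) ran the other way. Among 9449 genes the highest correlations with the mean were those of Hspb6 (0.795), Hfe (0.776), Ppic (0.767), Higd2a (0.758), Dstn (0.746) and Ctsd (0.746). Libraries of a group share strain, diet and scale, and these correlations are a description with no test.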

How the data were processed

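RNA-seq of white adipose tissue gave 43 libraries in 10 groups. The deposited values are a score: the authors' normalized whole numbers per transcript with a floor of 1, not counts. Equal highest values and near-equal totals within a table show a common scale. The submitters' processing notes name HOMER and mm9; for the aligner, the counting options and the normalization the sources used here give nothing. A symbol's transcript row with the highest total was used. The scale for tests was log2(value + 1), and limma 3.58.1 under R 4.3.3 was used (1 mean per group, trended robust variance, two-sided, Benjamini-Hochberg adjustment over 22869 symbols, threshold 0.05), in 1 fit per experiment and 1 over both depots. No gene was filtered out. The log2 scale with its pseudocount understates changes of low genes. The 8 control columns, identical in both drug tables, were used once. The fit was tested on simulated data. Genes named beside the 10 are Cfd, up to 3 called genes with the smallest p per pathway list and comparison, and the 6 genes most correlated with the mean of 7 of the 10. 1 gene of the wider lists is not reported here. The genes and lists were chosen with earlier results of these data known. Alternatives were a pseudocount of 16, a mean of at least 10, equalized medians, summed transcript rows, a replicate block, fits on the compared groups alone and leaving out libraries. Gene positions, promoters and transcripts came from GRCm38 references, and sequences were aligned with Biopython 1.88. No other value columns were present.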

Additional observations from a re-analysis of the deposited data

Results flagged for a closer look

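In 9 of 100 sets of values (10 genes in 10 groups of 4 or 5 libraries), the highest or lowest library lay far from the others by Dixon's criterion, which chance meets in about 1 of 20. In chow-fed 129S1/SvImJ eWAT replicate 2 was apart for Serpina3n (763, others 3019 to 3932), C4b (1593, others 4330 to 5295) and Lcn2 (3601, others 15 to 113). Among 129S1/SvImJ controls, Orm1 was 1421 in replicate 3 (others 968 to 994), Saa3 was 150 in replicate 2 (others 26 to 35) and Lcn2 was 11 in replicate 4 (others 16 to 17). Orm2 was 18 in rosiglitazone-fed 129S1/SvImJ replicate 4 (others 12 to 13) and 26 in C57BL/6 iWAT replicate 4, where the other 3 were at the floor of 1. C4b was 4998 in C57BL/6 iWAT replicate 3 (others 6492 to 6749). The response of Orm3 to rosiglitazone differed between strains by the interaction test (log2 -2.03, adjusted p = 0.0384). That call was lost in 9 of the 16 fits that left out a single library.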

How the results depend on the processing

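The number of the 10 genes called was within 1.5 times of the reported number in 58 of 67 alternatives that kept or dropped more than a single library. The exceptions follow. Without both epididymal libraries 2 genes were called in chow eWAT, and without the 4 epithelial libraries 3. The fit on C57BL/6 drug libraries alone called 1, and the pseudocount of 16 left 1 in the C57BL/6 depot comparison. Without the 3 libraries with lymphocyte markers 1 was called between strains in iWAT and 1 in the depot interaction. The removals of the epithelial and lymphocyte libraries were chosen after seeing the data. With any single library left out, counts ran from 0 to 2 in chow eWAT and in the interaction with the drug, from 1 to 3 in the C57BL/6 depot comparison and from 0 to 1 in the depot interaction.

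Same-numbered libraries did not deviate together in every pair in any of the 9 sets compared. Between strains, the correlations of such pairs over genes ran from -0.52 to 0.51 in chow eWAT. They ran from -0.089 to 0.15 in 12-week eWAT and from -0.26 to 0.67 in iWAT. With so few pairs this cannot exclude that equal numbers mark shared animals or batches. With the replicate number as a block the calls were 0 in chow eWAT, 0 in 12-week eWAT and 1 in the C57BL/6 depot comparison, over all genes 252, 1277 and 2078 in place of 1142, 4973 and 2992. In 12-week eWAT the block gave adjusted p of 0.0662 to 0.121 for Serpina3n, Hp, C3 and C6 (log2 1.22, -1.44, -0.79 and -2.50). In the interaction with the drug it left 1 call but another gene, with Orm3 at 0.0724 and Serpina3n at 0.0375. The C4b depot interaction changed sign with the block, from log2 -0.014 to log2 0.055, and was called in neither fit.

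Log2 changes that turned sign were all uncalled. With the epididymal libraries out, chow Orm1 was 0.75 and Lcn2 -1.77, and with the epithelial ones out Orm1 was 0.49 and C4b 0.057. With the pseudocount of 16 the drug interaction of C6 was 0.17 and iWAT strain difference of Saa3 -0.16. Without the lymphocyte libraries the 129S1/SvImJ depot changes were -0.33 for Orm2, -0.54 for C3 and 0.57 for C6, and the depot interaction of C3 was -0.32. With any single library left out, chow strain differences ran from -1.16 to 1.13 for Lcn2, -0.31 to 0.58 for Orm1 and -0.0027 to 0.73 for Saa3. Control-diet strain differences ran from -0.042 to 0.22 for Hp and -0.10 to 0.45 for Orm2, and with the drug from -0.10 to 0.70 for Lcn2. Drug responses ran from -0.014 to 0.43 for Lcn2 and -0.45 to 0.052 for C3 in C57BL/6 and from -0.29 to 0.064 for C4b in 129S1/SvImJ, and drug interactions from -0.36 to 0.31 for C6 and -0.060 to 0.47 for Hp. In iWAT strain differences ran from -0.54 to 1.02 for Saa3 and -0.12 to 0.39 for Orm1. Depot changes ran from -0.22 to 0.044 for C3 in C57BL/6 and from -0.26 to 0.31 for C3 and -0.059 to 0.65 for Orm2 in 129S1/SvImJ, and depot interactions from -0.27 to 0.20 for C4b, -0.13 to 0.39 for Serpina3n and -0.18 to 0.38 for C3. The cause was not tested. Depth is unknown, and values of Orm2, Saa3 and Lcn2 near the floor limit what can be told for them.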
